A study of Gallus gallus with 16 samples.

Results

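Livers of 4 broilers fed diet H were compared with livers of 4 broilers fed diet A, 8 of the 16 arrays of the series, chosen by the diet letter in the sample characteristics. All 8 birds were male and were sampled at day 21, and each array held the RNA of 1 bird, as the design text describes the collection. The series tests an essential oil blend and saponins as feed additives for growing chickens, and the remaining arrays are 4 livers each of diets E and F. What the letters stand for is not stated in the sources used here, so diet A is the reference only as the first letter, and which additive diet H held is not known. The breed, the housing and the amount eaten are not given in these sources either.

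The diet H birds carry the title numbers 21, 22, 46 and 47 and are called H1 to H4 here, and the diet A birds carry 4, 5, 26 and 27 and are called A1 to A4. Every diet has 2 titles up to 25, called the lower titles, and 2 above, called the upper titles. What the title numbers mean is not stated, so they may or may not mark a pen, a day or a laboratory run. H3 and H4, the upper titles of diet H, were known to stand apart, and each result is given for all 4 diet H birds and then separately for H1 with H2 and for H3 with H4.

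The liver makes most plasma proteins, turns dietary carbohydrate into fat and glucose, and in birds is the main site of fatty acid synthesis. It also holds immune cells and answers interferons, secreted signals that switch on antiviral genes, antigen-presentation genes and guanylate-binding proteins in the receiving cell. Its metabolism is timed by a circadian clock, a loop in which the activators ARNTL and CLOCK drive the genes of their own repressors, the PER and CRY families. In a bulk liver sample, fewer cells of a type and less RNA of a gene per cell cannot be told apart.

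The arrays gave log2 signals for 20804 features, of which 12300 carry 1 gene symbol and stand for 11528 genes, a gene being read from its brightest feature on average. Array medians lay between 6.11 and 6.21. Of the hepatocyte markers 16 of 22 were measured, 0 of them were dimmer on average than the 20th percentile of the signals, and their median in every one of the 8 birds lay within 0.07 of the diet A mean, so the tissue label and these markers were not at odds. H3 and H4 correlated with each other at 0.975 over all features and with the other 6 birds at 0.916 to 0.954, while the other 6 correlated among themselves at 0.973 to 0.983. Some arrays of diets E and F came nearer to H3 and H4 than those 6 did. Diet F replicate 4 correlated with H3 and H4 at 0.970 and 0.972, and diet E replicate 1 at 0.968 and 0.967. The lowest in diets E and F was diet E replicate 2, at 0.930 and 0.925. These correlations are across features of whole arrays and share the processing of the series. RNA quality values were not used here.

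Over all 4 birds a diet, no feature passed in diet H minus diet A. In limma with Benjamini-Hochberg adjustment 0 of 20804 features were called (0.0%), the lowest adjusted p was 0.521, and 1708 features (8.21%) lay at an unadjusted p under 0.05, 923 higher (4.44%) and 785 lower (3.77%) in diet H. Without H3 and H4 the call count was again 0, and 468 features (2.25%) lay at an unadjusted p under 0.05. The median standard error of a difference was 0.216 in log2 units, which gives a 95% half-width of 0.458.

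The upper and the lower titles gave different pictures of the same contrast. For the upper titles, H3 and H4 against A3 and A4, limma called 5417 features (26%), 2517 higher in diet H (12.1%) and 2900 lower (13.9%). For the lower titles, H1 and H2 against A1 and A2, it called 0 (0.0%), and an unadjusted p under 0.05 was reached by 571 (2.74%). The difference between these contrasts, tested itself, passed for 4 features (0.0192%), and 5583 (26.8%) lay at an unadjusted p under 0.05. Each contrast rests on 2 birds a diet, and the birds H3 and H4 were singled out with their values known, so these calls describe the birds.

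The only named gene among those 4 features was SF3B5, a subunit of the splicing factor complex that recognises the branch point. It read 7.47, 7.51, 6.93 and 6.95 in A1 to A4 and 7.18, 7.20, 8.48 and 8.66 in H1 to H4. H3 and H4 lay above all other birds, and H1 and H2 lay among the diet A birds. The upper-title difference was 1.63 and the lower-title difference -0.30. These differ by 1.93 ± 0.21 (SE, adjusted p = 0.0271 in limma, 2 birds a diet in each). A3 and A4 lay below A1 and A2, so a part of the 1.93 lies in the diet A birds.

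Across the 11528 genes the median absolute difference between diets was 0.121 for the lower titles and 0.447 for the upper titles. The differences had the same sign in 48.0% of genes, and their correlation across genes was -0.044 (Spearman -0.039). Genes are not independent replicates, and this is a description of 8 livers. Within a diet, the upper minus the lower titles called 7815 features for diet H (37.6%), 7 for diet F (0.0336%) and 0 for each of diets A and E (0.0%), in limma with Benjamini-Hochberg adjustment.

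**Figure D1:**
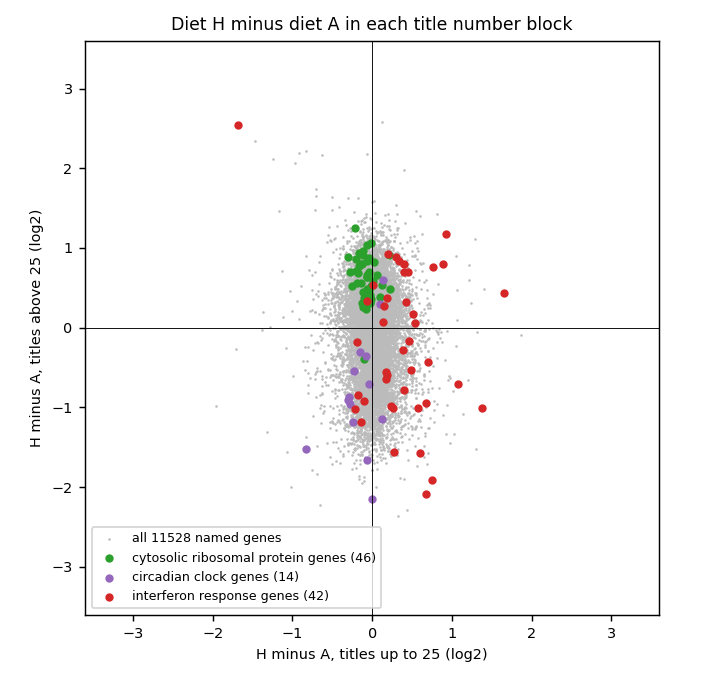
Each grey point is 1 of 11528 genes, with its log2 difference of diet H minus diet A for titles up to 25 (H1, H2 against A1, A2) on the x axis and for titles above 25 (H3, H4 against A3, A4) on the y axis. The cloud is tall and narrow (median absolute difference 0.447 against 0.121), nearly all of the 46 ribosomal protein genes (green) lie above 0 and most of the 14 clock genes (purple) below 0 on the y axis, and most of the 42 interferon response genes (red) lie right of 0 on the x axis and to both sides on the y axis.

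What all 4 diet H livers shared was small in number and in size. All 4 diet H birds lay above all 4 diet A birds on 264 features (1.27%), or 135 genes (1.17%), and below them on 182 features (0.875%), or 102 genes (0.885%). The median difference of the 135 genes was 0.42 over the 4 birds, with 0.26 in H1 and H2 and 0.55 in H3 and H4. The 102 lower genes had a median of -0.39, with -0.25 in H1 and H2 and -0.47 in H3 and H4. H3 and H4 lay farther from diet A than H1 and H2 in 115 of the 135 and in 83 of the 102. These medians follow in part from the choice of genes that did not overlap and are no test. Some genes separate 4 birds from 4 by chance alone, and that share was not computed. The counts are therefore a description too, and they do not show that the diet H birds shared a difference. They changed most when H2 was left out, to 1993 and 1272 features, though fewer birds must then be separated.

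GBP1, a guanylate-binding protein gene that interferon gamma induces in mammals, had the widest gap upward. It read 8.24, 8.02, 8.20 and 8.49 in A1 to A4 and 9.0, 8.79, 9.40 and 8.80 in H1 to H4. Every diet H bird lay at least 0.30 above the highest diet A bird, and the difference was 0.76 ± 0.24 (SE, n = 4 birds a diet, 1.69-fold, adjusted p = 0.521 in limma). H1 and H2 alone lay 0.66 above the diet A mean. The 8 birds of diets E and F ranged from 8.04 to 9.26, across both groups.

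TRIB1, a pseudokinase gene whose product steers protein degradation and, in mouse liver, lipid synthesis, had nearly uniform values in diet A. It read 7.68, 7.59, 7.67 and 7.58 in A1 to A4 and 7.97, 8.44, 8.51 and 8.47 in H1 to H4. H1 was the lowest of the diet H birds and still above every diet A bird, and the difference was 0.72 ± 0.18 (SE, n = 4, 1.64-fold, adjusted p = 0.521 in limma). Birds of diets E and F reached 8.51, as high as H3.

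RARRES1, a retinoic acid responder gene, was higher in H1 and H2 than in H3 and H4. It read 9.95, 10.02, 10.12 and 10.17 in A1 to A4 and 10.54, 10.86, 10.38 and 10.52 in H1 to H4, a difference of 0.51 ± 0.16 (SE, n = 4, adjusted p = 0.521 in limma). RIC3, which encodes a chaperone of nicotinic acetylcholine receptors, read 5.63 to 6.04 in diet A and 6.25, 6.70, 6.73 and 6.69 in H1 to H4. SUPT4H1, a transcription elongation factor gene, and TUBB3, a beta tubulin gene, were highest in H3 and H4. SUPT4H1 read 7.25, 7.34, 7.52 and 7.40 in A1 to A4 and 7.91, 7.79, 8.54 and 8.40 in H1 to H4. TUBB3 read 6.72, 6.82, 6.72 and 6.31 in A1 to A4 and 7.06, 7.10, 7.91 and 7.99 in H1 to H4.

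Among the lower genes CDCA7L, a MYC-interacting factor gene in mammals, had the widest gap. It read 7.92, 7.93, 7.54 and 7.81 in A1 to A4 and 7.15, 7.18, 5.57 and 6.20 in H1 to H4. All diet H birds lay under all diet A birds, with H3 and H4 lowest, and the difference was -1.27 ± 0.42 (SE, n = 4, adjusted p = 0.521 in limma) over all 4 birds and -0.63 in H1 and H2. LYG2, a goose-type lysozyme gene that cleaves bacterial cell walls, read 11.65, 11.93, 11.82 and 11.88 in A1 to A4 and 11.47, 10.79, 9.77 and 9.49 in H1 to H4. H3 and H4 were again lowest, and birds of diets E and F reached down to 9.76.

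ANTXR2 and TMEM26 differed by a like amount in the 4 diet H birds, and the other lower genes by more in H3 and H4. ANTXR2, an anthrax toxin receptor gene that binds matrix proteins, read 8.94, 8.87, 9.05 and 9.06 in A1 to A4 and 8.65, 8.44, 8.46 and 8.56 in H1 to H4, a difference of -0.45 ± 0.14 (SE, n = 4, adjusted p = 0.521 in limma). TMEM26, a transmembrane protein gene, read 5.60 to 5.91 in diet A and 5.31 to 5.41 in diet H. MYH10, a non-muscle myosin heavy chain gene, read 8.15 to 8.90 in diet A and 7.93, 7.96, 7.62 and 7.70 in H1 to H4. AP1AR, an adaptor complex regulator gene, and SELENOO, a selenoprotein gene, differed by -0.34 and -0.35 in H1 and H2 against -1.05 and -0.73 over all 4 birds. MIR1551, a microRNA gene, read 6.50 to 6.95 in diet A and 6.07, 6.30, 5.67 and 5.70 in H1 to H4.

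**Figure D2:**
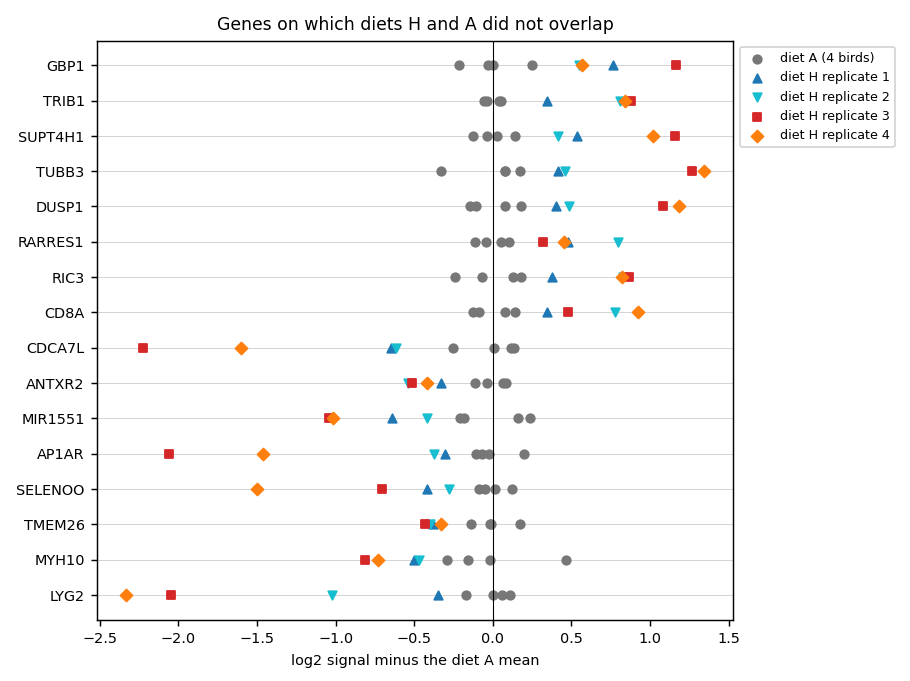
Log2 signal minus the diet A mean for the 8 genes higher and the 8 lower in diet H with the widest gap between the nearest birds of the diets, with a point for each of the 4 diet A birds (grey) and for H1 to H4. ANTXR2 and TMEM26 have the 4 diet H birds close together, while for CDCA7L, AP1AR and LYG2 the points of H3 and H4 lie well beyond those of H1 and H2.

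The genes with the smallest p in diet H minus diet A, each at adjusted p = 0.521 in limma, were MIR1551, TUBB3, ARRDC1, SPATA1, UBAP1L, TRIB1, RAD51D, KDELC2, SUPT4H1 and GBP4L. On all 10 the diets did not overlap. ARRDC1, an arrestin-domain gene of vesicle budding, read 6.94, 6.67, 6.51 and 6.81 in A1 to A4 and 7.52, 7.09, 7.56 and 7.58 in H1 to H4, a difference of 0.70 ± 0.17 (SE, n = 4). SPATA1, a spermatogenesis-associated gene, differed by -0.92 ± 0.23 (SE, n = 4), and by -0.80 with H1 and H2 alone. RAD51D, a DNA recombination repair gene, differed by 0.68 ± 0.18 and by 0.40 with H1 and H2 alone. KDELC2, a glycosyltransferase gene of the endoplasmic reticulum, differed by -0.73 ± 0.19 and by -0.47 with H1 and H2 alone.

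Set against all 12 birds of the other diets, only 2 genes kept the 4 diet H birds outside. STAB2, a scavenger receptor gene of the liver sinusoid that clears hyaluronan, read 8.81, 8.83, 8.83 and 8.92 in A1 to A4 and 8.65, 8.62, 8.39 and 8.49 in H1 to H4, and the diet E and F birds read 8.68 to 9.07. Its difference from diet A was -0.31 ± 0.13 (SE, n = 4, adjusted p = 0.521 in limma). LIX1, the other gene, read 3.33 to 3.68 in diet A and 3.71, 4.09, 4.29 and 3.81 in H1 to H4, all dimmer than the 20th percentile of the signals, 4.31. These 2 genes were picked after their values were seen.

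Interferon response genes were the list with the most members on which the diets did not overlap. Of 63 listed genes 42 were measured, and all 4 diet H birds lay above all 4 diet A birds on 8 of them, against 1.17% of all genes, and below on 0, against 0.885%. The 8 were GBP1, GBP4L, CCL19, TAP2, IRF7, ADAR, MOV10 and SOCS1. No member passed the test over all features, and the median difference of the list was 0.13, against 0.01 over all genes, with 24 members higher and 18 lower. With a trend on the genomic span of genes removed from each array, the list median was 0.03.

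GBP4L, of the same guanylate-binding family as GBP1, read 8.34, 8.55, 8.14 and 9.06 in A1 to A4 and 9.09, 9.65, 9.89 and 9.66 in H1 to H4. A4 and H1 nearly met, and the other 3 diet H birds lay well clear. TAP2, a peptide transporter gene of antigen presentation, read 6.56, 6.58, 6.34 and 6.34 in A1 to A4 and 6.81, 6.73, 7.42 and 7.12 in H1 to H4. IRF7, a transcription factor gene of the interferon response, read 6.80, 6.80, 6.96 and 7.12 in A1 to A4 and 7.24, 7.16, 7.98 and 7.69 in H1 to H4. On both genes H1 and H2 lay just above diet A and H3 and H4 higher. CCL19, a chemokine gene that draws T cells and dendritic cells, differed by 0.57 ± 0.17, ADAR, an RNA editing enzyme gene, by 0.59 ± 0.21, MOV10, an RNA helicase gene, by 0.58 ± 0.20 and SOCS1, a feedback inhibitor gene of cytokine signalling, by 0.55 ± 0.23 (SE, n = 4 each).

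Beyond these 8, the 2 pairs of diet H birds parted. H1 and H2 both lay above all 4 diet A birds on 19 of the 42 genes, against 3.99% of all genes, and below on 0, against 4.62%. H3 and H4 lay above all 4 diet A birds on 12 of the 42, against 31.8% of all genes, and below on 13, against 32.1%. The list median by bird was 0.34 in H1, 0.35 in H2, 0.05 in H3 and -0.35 in H4, and -0.24 to 0.18 in the diet A birds. This list was already known to be high in H1 and H2, so its counts are a description.

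The antiviral effector genes MX1 and RSAD2 showed this split. MX1, a dynamin-like antiviral GTPase gene, read 9.81, 7.80, 7.98 and 9.26 in A1 to A4 and 10.32, 10.03, 8.64 and 6.58 in H1 to H4. H1 and H2 lay above every diet A bird, H3 lay among them and H4 below them. RSAD2, the viperin gene, repeated this order with 7.27, 6.0, 6.05 and 7.17 in A1 to A4 and 7.93, 7.48, 6.71 and 5.10 in H1 to H4. Within diet A, A1 and A4 were high on both genes and A2 and A3 low, a spread wider than the difference of the diet means of 0.18 for each. Birds of diets E and F ranged from 7.17 to 10.96 on MX1, so that H1 and H2 were within their range and H4 below it.

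IFIH1 and TLR3, which encode sensors of viral RNA, were low in H3 and H4. IFIH1, a cytosolic sensor of viral double-stranded RNA, read 7.56, 7.17, 7.12 and 7.61 in A1 to A4 and 7.38, 7.88, 6.0 and 5.61 in H1 to H4. TLR3, an endosomal RNA sensor gene, read 7.79 and 7.84 in H1 and H2, above all diet A birds, and 5.72 and 5.50 in H3 and H4, below them. For the upper titles limma called 6 members higher (IRF7, GBP4L, CCL19, TAP2, ADAR and MOV10) and 8 lower (IFIH1, PARP14, TLR7, SAMD9L, NMI and the receptor genes IFNAR1, IFNAR2 and IFNGR1), which is 14.3% and 19.0% of the list against 11.3% and 19.0% of all genes, so that the share called lower was the one over all genes. IFNAR1 and IFNAR2, which encode the type I interferon receptor, differed by -1.18 and -0.91 for the upper titles and by -0.14 and -0.11 for the lower titles.

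**Figure D3:**
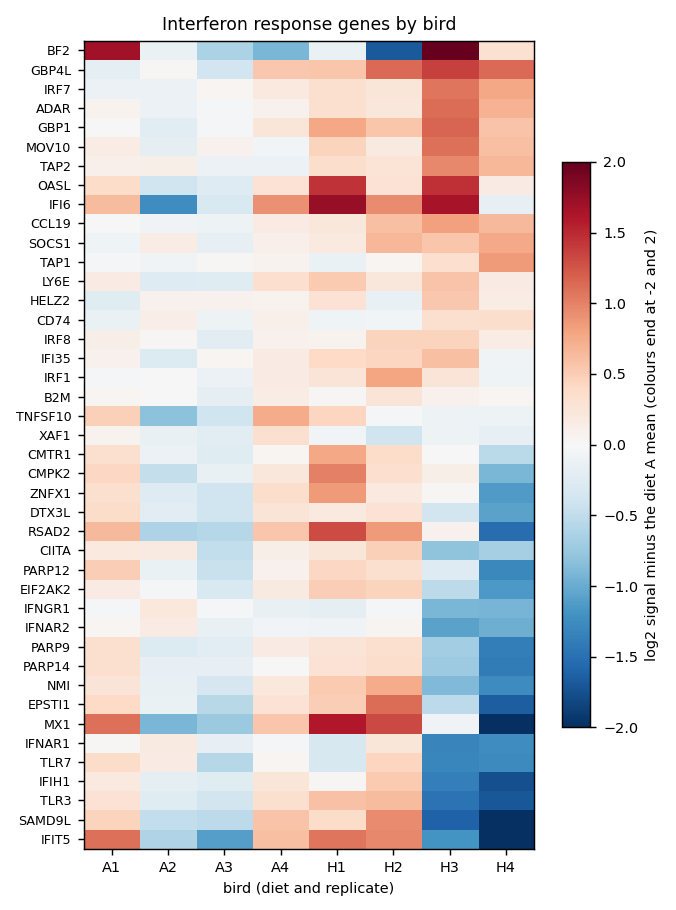
Heat map of the 42 measured interferon response genes (rows) in the 8 birds (columns), coloured by log2 signal minus the diet A mean, red above and blue below, with colours ending at -2 and 2. The H1 and H2 columns are mostly red, the H3 and H4 columns run from red at the top to blue at the bottom, and the diet A columns alternate between A1 with A4 and A2 with A3.

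T and NK cell markers were the other list with a large share of non-overlapping members. This list too was chosen with earlier results of these data known, so its counts are a description. Of 39 markers 24 were measured, and all 4 diet H birds lay above all 4 diet A birds on 5 (CD3D, CD247, CD8A, ZAP70 and EOMES), or 20.8% against 1.17% of all genes, and below on 0, against 0.885%. CD8A, the co-receptor gene of cytotoxic T cells, read 5.90, 6.13, 6.06 and 5.86 in A1 to A4 and 6.33, 6.76, 6.47 and 6.91 in H1 to H4. CD3D, of the T cell receptor complex, read 6.91, 7.11, 6.81 and 6.98 in A1 to A4 and 7.21, 7.85, 8.02 and 7.55 in H1 to H4. On both genes H1 was the diet H bird nearest to diet A.

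ZAP70, the kinase gene downstream of that receptor, read 6.45 to 6.93 in diet A and 6.96, 7.32, 7.12 and 7.16 in H1 to H4, and CD247, the receptor's zeta chain gene, read 6.50 to 6.68 in diet A and 6.76, 7.18, 6.82 and 6.79 in H1 to H4. The differences of CD3D, CD8A, EOMES, ZAP70 and CD247 were 0.71, 0.63, 0.58, 0.43 and 0.27, all at adjusted p = 0.521 in limma. The list median was 0.28, and by bird it was 0.12 in H1, 0.59 in H2, 0.19 in H3 and 0.13 in H4, against -0.10 to 0.10 in the diet A birds. On CD4, CD7, TXK, THEMIS and IL7R H3 and H4 lay below all 6 other birds, 5 of the 24 (20.8%) against 30.8% of all genes. They lay above all 6 on 3 (12.5%), against 29.4% of all genes. For the upper titles 2 were called higher (8.33%) and 0 lower in limma, against 11.3% and 19.0% of all genes.

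Immediate early genes, which cells switch on within minutes of a stimulus, were 24 measured members. Diet H lay wholly above diet A on 3 of them, or 12.5% against 1.17% of all genes. The list was chosen with earlier results of these data known, so this count is a description. DUSP1, a phosphatase gene that shuts off MAP kinases, read 7.20, 6.98, 7.30 and 7.02 in A1 to A4 and 7.53, 7.61, 8.21 and 8.31 in H1 to H4, a difference of 0.79 ± 0.22 (SE, n = 4, 1.73-fold, adjusted p = 0.521 in limma). FOS, a transcription factor gene of this class, differed by 0.50 ± 0.23, and DUSP6, another MAP kinase phosphatase gene, by 0.21 ± 0.15. ATF3, a stress-induced member, went the other way with 7.58, 8.36, 8.72 and 7.44 in A1 to A4 and 6.69, 7.87, 6.35 and 6.13 in H1 to H4. The list median was 0.26, with 0.15 in H1, 0.19 in H2, 0.29 in H3 and 0.41 in H4. With the trend on span removed it was 0.10 over the 4 birds, and in H3 and H4 it turned from 0.34 to -0.07, with a median span of 3897 bp.

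In the remaining lists at most 2 members a direction separated the diets. Of 19 measured macrophage and granulocyte markers AVD, the avidin gene, lay above and LY86 and LYG2 lay below in all diet H birds, against 1.17% and 0.885% of all genes. LY86, a partner of a Toll-like receptor relative on myeloid and B cells, read 11.41, 11.15, 11.55 and 11.33 in A1 to A4 and 11.01, 11.04, 10.76 and 10.46 in H1 to H4. GSTZ1, an enzyme gene of tyrosine breakdown, read 10.76, 9.72, 10.49 and 10.69 in A1 to A4 and 10.97, 10.95, 10.85 and 10.90 in H1 to H4, which sets 4 like values against a spread that 1 bird, A2, widened. The clotting factor genes F7 and F12 lay below diet A in all diet H birds, F7 by -0.31 ± 0.13 and F12 by -0.53 ± 0.20, and CBS, of transsulfuration, by -0.49 ± 0.21 (SE, n = 4 each, adjusted p = 0.521 in limma).

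What H3 and H4 carried alone was far larger. They lay above all 6 other birds of these diets on 3391 genes (29.4%) and below them on 3550 (30.8%). They lay above all 14 other arrays on 1768 genes (15.3%) and below all 14 on 2446 (21.2%). The difference from the other 6 birds had a median of 0.73 in the 1768 and of -0.91 in the 2446, with an extreme of 2.61 upward and -2.52 downward. A difference of more than 1 log2 unit was held by 254 of the 1768 and by 1001 of the 2446.

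The genes that H3 and H4 carried alone went with gene size. The higher genes had a median genomic span from start to end of 7042 bp and the lower genes of 26941 bp, against 16339.5 bp over all genes. Across genes the deviation from the diet A mean had a Spearman correlation with span of -0.36 in H3, -0.37 in H4, -0.13 in H1 and 0.24 in H2. The next most extreme array was most often diet F replicate 4, in 611 of the 1768 higher (34.6%) and 1131 of the 2446 lower genes (46.2%), then diet E replicate 1, in 379 (21.4%) and 614 (25.1%). H1 was next in 39 and 16 and H2 in 8 and 13. With the trend on span removed, the difference of H3 and H4 from the other 6 birds kept its sign in the 82 named genes that have a span, and was smaller by over 1.5 times in 20. Among these it went from 1.36 to 0.71 for SF3B5, from 1.25 to 0.73 for PSMB4, from 1.34 to 0.79 for NQO1 and from 1.63 to 1.04 for THRSP. The part of RNA quality, of the array run and of the diet in these differences was not tested.

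G6PC and PFKL, enzyme genes of carbohydrate metabolism, were 2 of the 8 higher genes with the widest gap to all other arrays. G6PC, the enzyme gene of the last step of glucose release, read 7.11, 6.60, 7.13 and 6.95 in A1 to A4, 6.99 and 6.79 in H1 and H2, and 8.49 and 8.47 in H3 and H4. The other 14 arrays reached no higher than 7.33, and H3 and H4 lay 2.93-fold above the other 6 birds. PFKL, the liver phosphofructokinase gene of glycolysis, read 7.82, 8.25, 8.88 and 8.04 in A1 to A4, 8.45 and 8.01 in H1 and H2, and 9.95 and 9.82 in H3 and H4. Both genes were called for the upper titles, by 1.44 ± 0.20 (adjusted p = 0.0071) and 1.43 ± 0.27 (adjusted p = 0.00812) in limma. They were picked because H3 and H4 lay beyond all other arrays, A3 and A4 included, so these calls follow in part from the choice. Of the 21 measured gluconeogenesis and glycogen genes 5 were called higher and 4 lower, with a list median of -0.07 in H3 and H4 minus diet A. Of the 17 glycolytic genes 4 were called higher and 0 lower, against 11.3% and 19.0% of all genes.

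The other genes of this kind were TLCD1, IPO13, AHR2, KCNJ4, PSMB4 and SF3B5. TLCD1, a regulator gene of membrane phospholipids, read 9.50 and 8.98 in H3 and H4 against 6.45 to 7.47 in the other 6 birds. KCNJ4, a potassium channel gene, read 7.02 and 7.28 against 3.89 to 5.31. AHR2, an aryl hydrocarbon receptor gene, read 8.22 and 8.07 against 6.22 to 6.99, IPO13, a nuclear import receptor gene, 7.80 and 7.70 against 6.07 to 6.43, and PSMB4, a proteasome subunit gene, 9.74 and 9.57 against 8.15 to 8.58.

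PER2 and CRY1, repressor genes of the clock, were 2 of the 8 lower genes. PER2, a repressor of the clock, read 8.23, 7.26, 7.39 and 8.02 in A1 to A4, 7.45 and 8.04 in H1 and H2, and 5.83 and 5.28 in H3 and H4. The lowest of the other 14 arrays read 6.91, and the other 6 birds lay 4.53-fold above H3 and H4. CRY1, the second repressor, read 8.91, 8.71, 8.47 and 8.58 in A1 to A4, 8.66 and 8.47 in H1 and H2, and 7.31 and 7.38 in H3 and H4. For the upper titles PER2 differed by -2.15 ± 0.39 (adjusted p = 0.00812) and CRY1 by -1.18 ± 0.15 (adjusted p = 0.0066) in limma, and for the lower titles by -0.00 and -0.24. Both genes were picked by the gap of H3 and H4 to all other arrays, so the upper-title calls follow in part from the choice.

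Of 24 clock genes 14 were measured, and H3 and H4 lay below all 6 other birds on 11 and above on BHLHE40 alone, against 30.8% and 29.4% of all genes. For the upper titles 9 were called lower and 0 higher, against 19.0% and 11.3% of all genes. The list median was -0.86 in H3 and in H4, -0.17 in H1 and -0.00 in H2. The activators ARNTL, ARNTL2 and CLOCK and the repressors PER2 and CRY1 were low together, and so was NFIL3, a repressor of clock output, with 8.93 and 9.77 in H1 and H2 and 7.67 and 7.64 in H3 and H4. On ARNTL all 4 diet H birds lay below diet A, H1 and H2 at 7.89 and 7.67 and H3 and H4 at 7.34 and 7.24, against 8.05 to 8.20. The hour at which each bird was sampled is not given in the sources used here. Clock genes had a median span of 35961.5 bp, and with the trend on span removed from each array their median in H3 and H4 minus diet A was -0.66, where it was -0.94 before.

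RAD17, of the DNA damage checkpoint, read 6.1 and 6.07 in H3 and H4 against 7.43 to 7.75 in the other 6 birds. SLC7A6, an amino acid exchanger gene, read 6.82 and 6.87 against 8.07 to 8.79, and GMFB, a glia maturation factor gene, 8.01 and 7.96 against 9.20 or more. PPP1R9A, a phosphatase scaffold gene, read 4.99 and 4.82 against 5.91 to 6.85, and FAM49A 7.33 and 7.32 against 8.64 to 9.72. MKI67, a marker of dividing cells, read 4.40 and 4.56 in H3 and H4. It also ranged from 5.37 to 8.72 in the other 6 birds, so that its upper-title difference of -2.36 ± 1.14 was not called (adjusted p = 0.141 in limma).

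**Figure D4:**
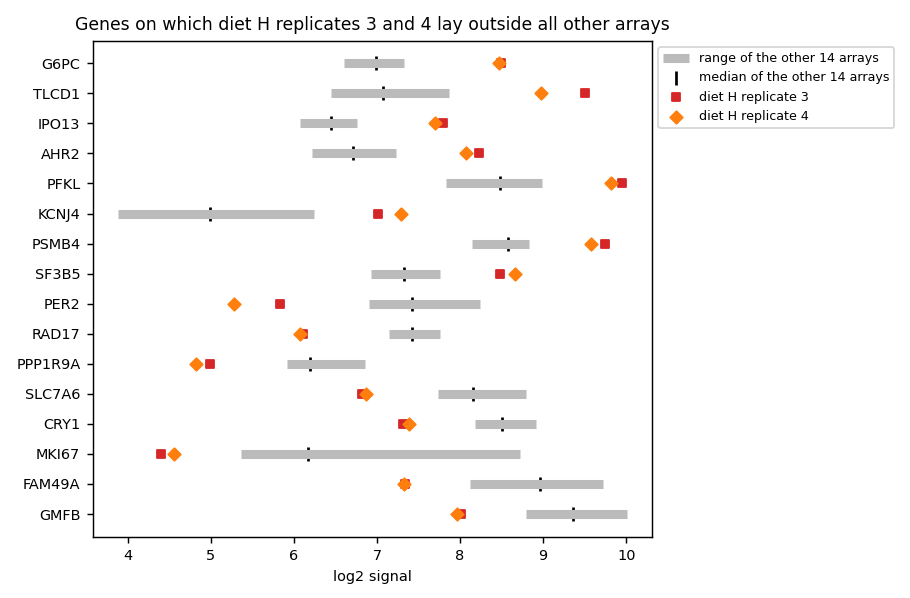
Log2 signal of the 8 higher and 8 lower genes on which H3 (red squares) and H4 (orange diamonds) lay outside all other arrays with the widest gap, with a grey bar from the lowest to the highest and a black tick at the median of the other 14 arrays. H3 and H4 lie close together on each gene and outside every bar, as for G6PC at 8.49 and 8.47 against at most 7.33.

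Ribosomal and respiratory genes were high in H3 and H4. H3 and H4 lay above all 6 other birds on 44 of 46 measured cytosolic ribosomal protein genes and on 37 of 49 respiratory chain and ATP synthase genes, against 29.4% of all genes. For the upper titles 30 and 28 were called higher and 0 and 0 lower, against 11.3% and 19.0% of all genes. RPS27A, which encodes a ribosomal protein fused to ubiquitin, read 9.66 and 9.46 in H3 and H4 against 8.05 to 8.62 in the other 6 birds. NDUFV1, a core subunit gene of complex I, read 9.26 and 9.47 against 7.69 to 8.07. Both lists hold short genes, with median spans of 3265.5 and 3285 bp, and the median of H3 and H4 minus diet A went from 0.59 to 0.14 and from 0.65 to 0.17 with the trend on span removed. RPS27A itself went from 1.23 to 0.68 and NDUFV1 from 1.4 to 0.92 in H3 and H4 minus the other 6 birds.

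Genes of protein folding and export were low in H3 and H4. Of 40 measured endoplasmic reticulum genes H3 and H4 lay below all 6 other birds on 21 and above on 4 (52.5% and 10%), against 30.8% and 29.4% of all genes. For the upper titles 15 were called lower and 2 higher (37.5% and 5.0%), against 19.0% and 11.3% of all genes. PDIA4, a protein disulfide isomerase gene, read 11.09, 11.12, 11.13 and 11.02 in A1 to A4, 10.70 and 11.16 in H1 and H2, and 9.71 and 9.83 in H3 and H4. HSP90B1, the chaperone gene of that compartment, read 11.46 and 11.55 in H3 and H4 against 12.44 to 12.92 in the others, and DNAJB9, a co-chaperone gene, 6.49 and 7.01 against 7.86 to 8.82. SEC61B, of the protein-conducting channel, was one of the 4 higher genes, with 11.48 and 11.48 against 10.15 to 10.95. This list had a median span of 10947.5 bp, under that of all genes, and its median was -0.48 before and -0.41 after the trend on span was removed.

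Among plasma protein genes that the liver exports, 8 of 22 coagulation genes were called lower and 0 higher for the upper titles, against 19.0% and 11.3% of all genes. Of 29 acute phase and complement genes 9 were called lower (31.0%) and 4 higher (13.8%), the latter near the share over all genes. C5, a complement component gene, read 11.49, 11.84, 11.28 and 11.35 in A1 to A4, 11.28 and 11.56 in H1 and H2, and 9.84 and 9.96 in H3 and H4. PROS1, the protein S gene that restrains clotting, read 9.67 in both H3 and H4 against 10.90 to 11.29 in the other 6 birds. Among the hepatocyte markers APOB, the structural protein gene of very low density lipoprotein, read 11.64 and 11.86 against 12.55 to 12.99, and HPX, the haem-binding hemopexin gene, 12.37 and 12.71 against 11.19 to 12.30.

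Fatty acid synthesis and oxidation genes were called for the upper titles about as often as all genes. Of 21 fatty acid synthesis genes 3 were called higher (14.3%) and 3 lower (14.3%), and of 32 fatty acid oxidation genes 3 higher (9.38%) and 6 lower (18.8%), against 11.3% and 19.0% of all genes. SREBF1, the lipogenic transcription factor gene, read 8.86 and 8.59 in H3 and H4 against 7.41 to 8.02 in the other 6 birds, and PPARG, a lipid storage receptor gene, read 4.67 and 5.21 against 6.03 to 7.14. THRSP, a lipogenesis marker, read 13.28 and 12.92 in H3 and H4, and its values of 11.88, 10.33, 12.37 and 10.90 in A1 to A4 spread widely. ACSL1, which activates fatty acids, read 9.46 and 9.36 in H3 and H4 against 10.15 to 10.97. IGF1, the growth factor gene that growth hormone induces in liver, read 8.30 and 8.65 in H3 and H4 against 9.58 to 10.61. It was called for the upper titles (-1.62, adjusted p = 0.013 in limma). It was named with the values of H3 and H4 known, so this call is no test. Of 22 measured growth hormone and IGF axis genes 1 was called higher (4.55%) and 4 lower (18.2%), against 11.3% and 19.0% of all genes.

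NQO1 and GSR, antioxidant enzyme genes that the factor NRF2 induces in mammals, were high in H3 and H4. They read 9.82 and 9.80, and 8.28 and 8.65, in H3 and H4, above the other 6 birds at 8.21 to 8.83 and 7.04 to 7.65. Over the 36 measured genes of that list 6 were called higher (16.7%) and 6 lower (16.7%) for the upper titles, near the 11.3% and 19.0% of all genes. Of 41 splicing factor genes 17 were called lower (41.5%) and 4 higher (9.76%), against the same 19.0% and 11.3%, and PRPF4B, a splicing kinase gene, read 6.94 and 7.11 in H3 and H4 against 8.46 to 9.29 in the others. Of 22 amino acid response genes 7 were called lower (31.8%) and 1 higher (4.55%), with AARS1, a tRNA synthetase gene, at 10.71 and 10.77 against 9.51 to 10.17 and PSAT1, of serine synthesis, at 9.99 and 10.30 against 10.95 to 11.86. As a whole the amino acid response list was not lower, with a median of 0.04 in H3 and H4 minus diet A (-0.12 in H3 and 0.14 in H4).

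Most stellate cell and fibroblast markers were high in H3 and H4. Of 29 measured ones 13 were called higher and 1 lower for the upper titles, against 11.3% and 19.0% of all genes, and the list median was 0.36 in H3 and 0.56 in H4 against -0.12 to 0.18 in the other 6 birds. COL1A2, a type I collagen chain gene, read 8.05 and 8.24 in H3 and H4 against 6.86 to 7.18, and MGP, a matrix protein gene that limits calcification, 7.88 and 7.87 against 6.04 to 6.73. Birds of diets E and F reached 8.20 on COL1A2, above H3, and 7.48 on MGP. H3 and H4 lay above all 14 other arrays on 8 of the 29 markers and below on 1, against 15.3% and 21.2% of all genes. They lay above the other 6 birds on 17 and below on 2, against 29.4% and 30.8% of all genes. FBLN1, LUM and POSTN lay lower in H3 and H4 minus diet A, by -0.72, -0.52 and -0.40, and FBLN1 was the 1 called lower. Of 17 measured erythrocyte and thrombocyte markers 4 were called higher (HBA1, HBAD, HBZ and HEMGN, 23.5%) and 0 lower. The haemoglobin genes HBA1 and HBAD read 9.52 and 9.63, and 10.40 and 10.52, in H3 and H4 against 7.90 to 8.42 and 8.46 to 9.37, while birds of diets E and F reached 9.61 and 10.66. Of the same list TUBB1, CA2 and HBE lay lower in H3 and H4 minus diet A, by -0.84, -0.41 and -0.31, and were not called. Of 19 macrophage and granulocyte markers 8 were called lower (42.1%) and 0 higher, and MRC1, a mannose receptor gene, read 8.68 and 9.23 against 10.01 to 10.44. The markers of this list pointed both ways. On 10 of the 19 H3 and H4 lay below all 6 other birds, against 30.8% of all genes. On 4 (LYZ, LGALS3, C1QC and ITGB2) they lay above them, against 29.4% of all genes. Birds of diets E and F reached 5.26 on LGALS3, 11.91 on C1QC and 9.89 on ITGB2, above both H3 and H4. On LYZ they reached 6.77, below both. H3 and H4 lay above all 14 other arrays on 1 of the 19 and below on 8, against 15.3% and 21.2% of all genes.

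Of 31 measured intestine and pancreas markers 4 were called higher (12.9%) and 0 lower, against 11.3% and 19.0% of all genes, and 12 of the 31 were dimmer on average than the 20th percentile. The list median was 0.58 in H3 and 0.38 in H4 against -0.08 to 0.08 in the other 6 birds. APOA4, an apolipoprotein gene counted here as an intestinal marker, read 10.81 and 11.08 in H3 and H4 against 8.23 to 9.70. Endothelial markers pointed both ways, with 5 called higher and 5 lower of 20 (25% each). RAMP2, a receptor partner gene, read 9.67 and 9.85 against 8.27 to 8.53, and PECAM1, an adhesion gene of these cells, read 6.20 and 6.05 against 7.51 to 7.96. The part of cell makeup in the differences of H3 and H4 was not tested.

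Cell division genes did not separate the diets. Their list median was -0.47 in H1, 0.95 in H2, -0.32 in H3 and -0.66 in H4, and 0.18, -0.57, -0.50 and 0.80 in A1 to A4, so that 1 or 2 birds of each diet were high and the others low. Of 49 measured genes 0 were called for the upper titles in limma, against 11.3% higher and 19.0% lower of all genes, and on 0 did the diets not overlap.

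**Figure D5:**
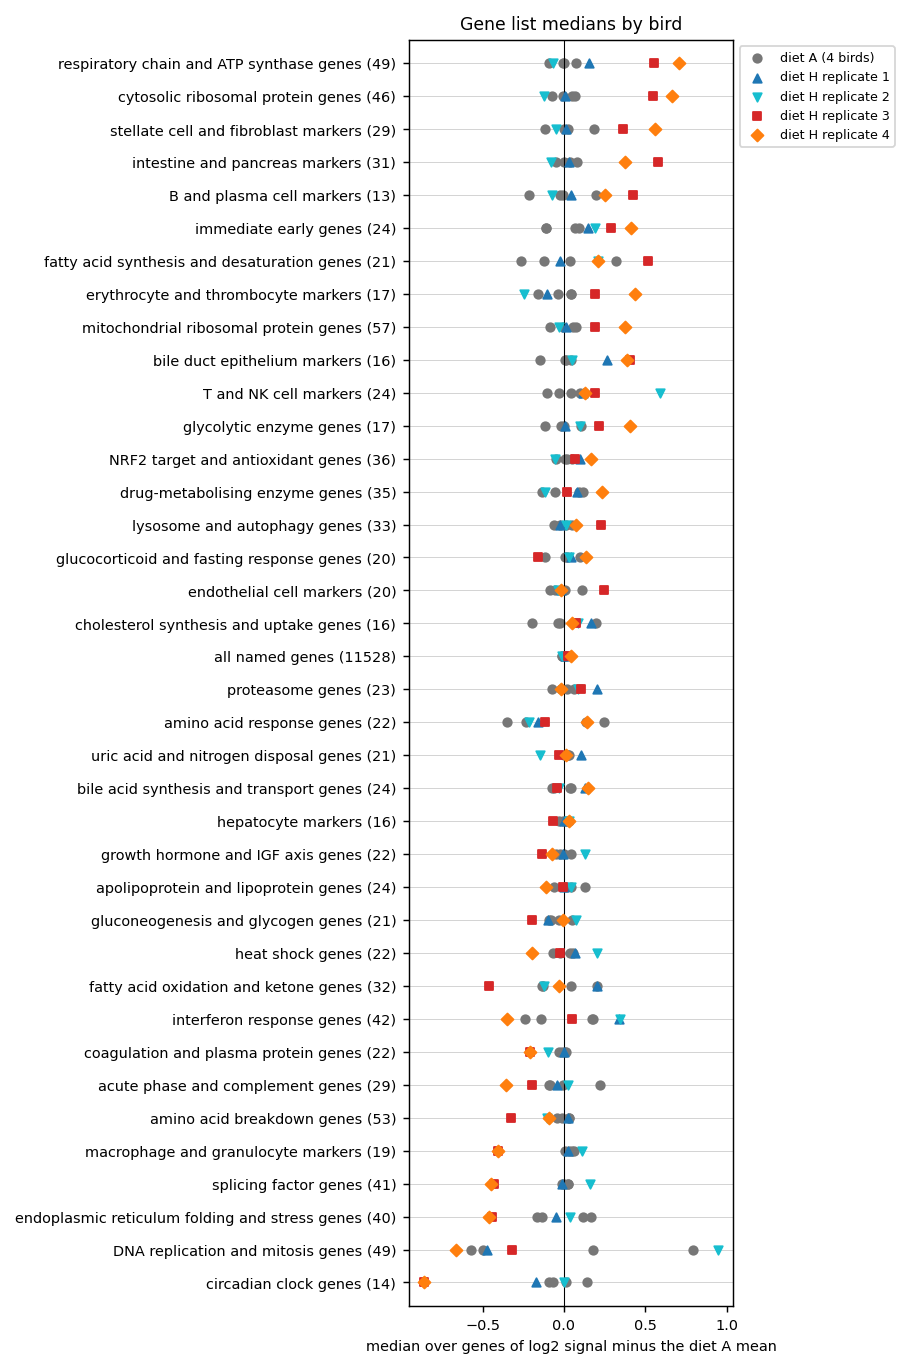
Median over the measured genes of each of the 37 gene lists (count in brackets) and of all named genes, of log2 signal minus the diet A mean, with a grey point for each diet A bird and coloured points for H1 to H4. For clock genes H3 and H4 lie at -0.86 and for ribosomal protein genes at 0.55 and 0.66, apart from the other birds, while for interferon response genes H1 and H2 lie at 0.34 and 0.35 and for T and NK cell markers H2 lies alone at 0.59.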

How the data were processed

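Liver RNA of 16 male broilers was hybridised to 1-colour Affymetrix arrays, per the labels' protocols. The authors deposited log2 values, which run from 0.93 to 14.63. The software was GCOS 1.1.1 per the submitters' processing notes. How background, summarization and normalization were handled is not given in the sources used here. All 20804 features were used with no filter, and 0 per-sample columns were left out. Symbols came from the platform annotation, and 11727 of 12300 named features matched the RefSeq table of assembly GRCg7b, which also gave genomic spans.

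The model, in limma 3.58.1 under R 4.3.3, gave each diet 1 mean over all 16 arrays, with 12 residual degrees of freedom, a prior of 4.12, two-sided tests and Benjamini-Hochberg adjustment over all features at 0.05. A second model had 1 mean for each diet in each title range. Replicates are birds per the design text, numbered in accession order. The number of birds limits the precision. Errors of differences are standard errors of these models. The fit was tested on simulated data with known changes in diet H, 50 features a size. It recovered 10% of the 1.41-fold, 54% of the 2-fold, 90% of the 4-fold and 100% of the 8-fold changes. Among unchanged features it called 6. The simulated noise was independent between features and had the same spread in all diets, and each change was equal in all 4 diet H birds. In the real data H3 and H4 lay apart from H1 and H2, so these rates need not hold for this contrast.

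The members, the 37 gene lists and the title ranges were chosen with earlier results of these data known. Genes under their usual symbol only, with a mean at or above the 20th percentile (4.31), were named by rule: the 10 with the smallest p, the 8 a direction with the widest gap between diets, the 8 a direction with the widest gap of H3 and H4 to all other arrays, and up to 4 a list by p and by the difference of H3 and H4. List members named outside that rule were chosen after their values were seen. They include MX1, RSAD2, the interferon receptor genes, HPX, LYZ, LGALS3, C1QC, ITGB2 and those on which the diets did not overlap. Genes named by the gap or difference of H3 and H4 were picked on values that the upper-title contrast uses. Their upper-title p-values are therefore no test. Alternatives were other scalings, a dim-feature filter, array weights, a variance trend, 8 arrays alone, a title range covariate, removal of the span trend (loess, span 0.3) and leaving out birds.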

Additional observations from a re-analysis of the deposited data

Results flagged for a closer look

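In 12 of 364 groups of 4 birds 1 bird lay apart from the others by Dixon's test at 95%, where chance flags about 1 in 20 groups. Within diet H these were replicate 1 for TRIB1 (7.97) and RIC3 (6.25), replicate 2 for ARRDC1 (7.09), CD247 (7.18), DUSP6 (8.20) and the median of T and NK cell markers (0.59 above the diet A mean), and replicate 3 for CBS (8.31) and the median of endothelial markers (0.25 above the diet A mean). Within diet A they were replicate 1 for PPARA (9.58), the receptor gene of the fasting response, and replicate 2 for SNRPF (7.49), ATG14 (7.38) and IL1R1 (11.55).

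The difference of diet H minus diet A differed between the upper and the lower titles on 4 features after adjustment in limma. It was 1.93 for SF3B5, 2.68 for the unnamed feature 15566274, and -2.87 for each of the unnamed features 15381859 and 15383669. The last 2 hold identical values on the arrays compared. On feature 15566274, as on SF3B5, a part lies in diet A, with 6.81, 6.87, 5.88 and 5.65 in A1 to A4.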

How the results depend on the processing

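The count of called features stayed at 0 in the other 17 alternatives run and was 5417 within the upper titles. The number of features with all diet H birds above all diet A birds, 264 with every bird, ranged from 341 to 1993 when 1 bird was left out (1993 without H2, 624 without A3, 580 without H1, 499 without A4, 457 without A2 and 437 without A1). The number with diet H below, 182 with every bird, ranged from 265 to 1272 (1272 without H2, 421 without H1, 362 without A3, 330 without A1, 329 without A2, 317 without A4 and 280 without H4). Counts rise when any bird is left out, since fewer birds must be separated. The rise without H2 was far larger than without any other bird, so the counts depend most on H2. PROS1 changed sign, from -0.68 to 0.028 without H3 and H4. Over the named genes' differences, 1243 values kept their direction and side of the threshold, and 44 passed it, all within the upper titles. Over the named genes' differences of H3 and H4 from the other 6 birds, 210 values moved by less than the spread of those 6 and 42 by more, 41 of them with the span trend removed. Of the list medians 540 moved by less than the spread of the birds, pooled over diets A and H, and 52 by more. Those 52 came most often within 1 title range, without H3 and H4 or with the span trend removed. The pooled spread includes H3 and H4, so it is wide for lists on which they lay apart. No paired analysis was possible because the labels give the birds no replicate numbers and the title numbers are not shared between diets. The sources used here do not give what the upper titles stand for, how the values were processed before deposit or what diet H held. H3 and H4 are 2 birds, and a difference under 0.458 lies within the median 95% half-width.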
